A study of Mus musculus with 124 samples.

Results

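Blastocysts of female mice that had received human chorionic gonadotropin (hCG) were compared with blastocysts of control mice (Ctrl) by Smart-seq2, a method that sequences full-length polyadenylated RNA from very little material. The comparison took all 28 hCG and all 28 Ctrl blastocyst RNA libraries of the study, 56 of its 124 samples. The study asked about exposure to hCG on the day that triggers ovulation, and it also profiled oocytes and the brains of offspring. The comparison covered every gene that passed a filter on low values. Females of the hCG group were in natural estrus and received 7.5 IU of hCG by intraperitoneal injection, with no priming gonadotropin before it. Ctrl females were in natural estrus, no injection is described for them, and for oocyte collection each was housed with a vasectomised male. Embryos of both groups were recovered by uterine flushing at embryonic day 3.5. The labels name no strain, and they give an age only for mice that were perfused. They describe no mating for the blastocysts, and they do not say which libraries share a mother or whether a library is 1 embryo. The p-values therefore measure the spread between libraries, which may include embryos of 1 litter.

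hCG acts on the receptor for luteinizing hormone in the ovary and is used to trigger ovulation. A blastocyst has an outer epithelium, the trophectoderm, which forms the placenta and pumps fluid into a cavity, and an inner cell mass, which parts into the epiblast of the future embryo and the primitive endoderm of the yolk sac. The transcription factor p53 raises the RNA of genes that halt the cell cycle or start apoptosis after DNA damage and other stress, and it is active in early embryos under stress. A library holds the RNA of all these cells, so fewer cells of a type and less RNA per cell cannot be told apart. Levels are given in CPM, the reads of a gene scaled to the same total in every library, as the lowest, the median and the highest of the 28 libraries of a group. CPM is not scaled to transcript length, so levels are set side by side within a gene and not between genes. Fold changes are differences of log2(CPM + 1), hCG minus Ctrl, with their standard errors. A gene was called at a Benjamini-Hochberg adjusted p under 0.05 in limma, a linear model fitted across all genes.

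The libraries held an estimated 4263370 to 9259360 reads in hCG and 3043230 to 10859400 in Ctrl. The number of detected genes was higher in hCG (13549 ± 335 in hCG against 12968 ± 798 in Ctrl, SD, n = 28 each, permutation test, adjusted p = 1.20e-04), and this difference also held without the Ctrl libraries 12 and 26, which had 10382 and 10720 genes (13549 ± 335 in hCG against 13154 ± 427 in Ctrl, adjusted p = 0.001). With a gene counted as detected at 5 or more reads in place of 1, the difference was 331 genes, against 581, and 17 hCG libraries lay above the Ctrl median, against 25 (permutation test, adjusted p = 0.0163). The hCG libraries 1, 3, 4, 22 and 23 held both Xist, an RNA of female cells, and Y-linked transcripts, and 0 of 28 Ctrl libraries did (Fisher's exact test, p = 0.0515). Markers of the trophectoderm (Cdx2, Gata3, Krt8, Krt18), the inner cell mass (Pou5f1, Nanog) and the primitive endoderm (Gata6) were above 0 in all 56 libraries. Other markers of these layers were not. Sox2 of the inner cell mass was at 0 in 1 Ctrl library. Of the primitive endoderm, Sox17 was at 0 in 6 hCG and 4 Ctrl libraries, and Pdgfra in 1 hCG library. Of other cells that a flush could bring, 8 of 22 stromal, blood and immune genes were at 0 in all 56 libraries, among them Col3a1, Hbb-bs and Adgre1, as were 4 of 15 uterine genes, 4 of 14 cumulus and granulosa genes, among them Lhcgr, and 0 of 21 oocyte genes. The uterine gene Wfdc2 had medians of 55.3 CPM in hCG and 69.04 CPM in Ctrl, Muc1 of 6.72 CPM in hCG and 2.20 CPM in Ctrl, and the collagen gene Col1a1 of 1.52 CPM in hCG and 0.531 CPM in Ctrl. Hba-a1, a globin gene, reached 156 CPM in hCG and 113 CPM in Ctrl, with medians of 3.68 CPM in hCG and 4.07 CPM in Ctrl.

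In hCG blastocysts 942 of 10848 genes (8.68%) had a higher level and 821 (7.57%) a lower one, and the median log2 fold change over all of them was 0.02. Without the 5 libraries that held both Xist and Y-linked transcripts 667 genes were higher and 480 lower, and without Ctrl libraries 12 and 26 the counts were 762 and 739. With genes detected as a term in the fit 337 genes were higher and 437 lower. The groups overlapped in every gene tested, and 16 higher and 20 lower genes had all 28 hCG libraries on 1 side of the Ctrl median.

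The genes with the largest rises included a pair of polo-like kinases. Plk5 had 0.231, 8.57 and 50.2 CPM in hCG, against 0, 2.06 and 18.5 CPM in Ctrl (1.66 ± 0.33, limma adjusted p = 8.75e-04). Plk2, a kinase gene that p53 induces, had 19.03, 53.1 and 131 CPM in hCG, against 1.14, 19.6 and 61.9 CPM in Ctrl (1.57 ± 0.26, limma adjusted p = 1.13e-04). The groups overlapped for both, and 27 of 28 hCG libraries lay above the Ctrl median for Plk2. Slc4a5, a sodium bicarbonate cotransporter gene, rose by 1.54 ± 0.31, with 10.1, 27.03 and 61.7 CPM in hCG, against 0, 9.802 and 35.8 CPM in Ctrl, and all 28 hCG libraries lay above the Ctrl median. The other genes of this group were the chromatin protein gene Hmga1 (1.60 ± 0.41), the ephrin ligand gene Efna3 (1.48 ± 0.28), Tap1, which carries peptides for antigen presentation (1.35 ± 0.27), Cnppd1 (1.31 ± 0.24), the RNA-binding protein gene Rbm38 (1.28 ± 0.22), the trans-Golgi protein gene Tgoln2 (1.26 ± 0.40) and the small heat shock protein gene Hspb8 (1.24 ± 0.25). The calls of Hmga1 and Tgoln2 ended in edgeR, and those of Plk5, Hmga1 and Tgoln2 ended with the gene-length term described further down. That term is a value per library computed from the levels, not the length of each gene.

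The genes with the largest falls included secreted and surface proteins. Spp1, the secreted adhesion protein osteopontin, had 0, 11.2 and 149 CPM in hCG, against 2.28, 41.6 and 411 CPM in Ctrl (-2.16 ± 0.54, limma adjusted p = 0.00508). Its range overlapped widely, and 22 of 28 hCG libraries lay below the Ctrl median. Tspan8, a tetraspanin of the cell surface, fell by 1.24 ± 0.30 with 17.98, 366 and 1109 CPM in hCG, against 166, 736 and 1804 CPM in Ctrl, and 25 of 28 hCG libraries lay below the Ctrl median. Plac1, an X-linked gene of placental development, had 0.773, 56.4 and 396 CPM in hCG, against 26.8, 137 and 410.0 CPM in Ctrl (-1.24 ± 0.36). Its call ended without the 5 libraries that held both Xist and Y-linked transcripts. Lama1, a laminin chain of basement membranes (-1.09 ± 0.32), the engulfment adaptor gene Gulp1 (-1.19 ± 0.25), the protease inhibitor gene Csta1 (-1.18 ± 0.22), the membrane protease gene Adam19 (-1.13 ± 0.25), the glutathione transferase gene Gsta1 (-1.22 ± 0.37) and the steroid dehydrogenase gene Akr1c21 (-1.12 ± 0.37) completed the group with Ndufs5-ps, a pseudogene (-1.44 ± 0.34). Reads of Ndufs5-ps, Gsta1, Csta1, Hmga1 and Tgoln2 can be shared with near-identical copies, so their values are uncertain. The calls of Spp1 (limma adjusted p = 0.122), Plac1, Lama1, Gsta1 and Akr1c21 ended with the gene-length term. Akr1c21 was called under 6 of 14 alternatives, Gsta1 under 11 of 15 and Lama1 under 13 of 15.

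Many targets of p53 rose. Of 34 listed targets that were tested, 17 were higher and 0 lower in hCG, against 8.68% and 7.57% of all genes tested, and their median log2 fold change was 0.44, against 0.02 over all genes. At an unadjusted p under 0.05 limma gave 22 higher and 0 lower, and edgeR called 12 higher and 0 lower. The list was drawn up with earlier results of these data known, so its count is a description. Rbm38, which binds the RNA of Cdkn1a, had 6.69, 75.5 and 217 CPM in hCG, against 7.76, 29.2 and 74.3 CPM in Ctrl (1.28 ± 0.22, limma adjusted p = 1.33e-04). Bax, which opens the outer mitochondrial membrane in apoptosis, had 108, 153 and 246 CPM in hCG, against 10.9, 81.2 and 179.6 CPM in Ctrl (0.92 ± 0.17, limma adjusted p = 2.96e-04). For Bax the lowest hCG library lay above the Ctrl median, while the highest Ctrl libraries reached into the hCG range.

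Further targets, chosen after their values were seen, showed the same pattern of shifted and overlapping groups. Cdkn1a, the inhibitor of cyclin-dependent kinases, had 118, 265 and 931 CPM in hCG, against 14.04, 150.4 and 361 CPM in Ctrl (1.00 ± 0.21, limma adjusted p = 0.00124). Ccng1, cyclin G1, had 196, 385 and 767 CPM in hCG, against 106, 254 and 618 CPM in Ctrl (0.54 ± 0.13, limma adjusted p = 0.003703). Perp, a membrane protein gene of apoptosis and desmosomes, had 105, 198 and 467 CPM in hCG, against 76.5, 111 and 303 CPM in Ctrl (0.66 ± 0.14, limma adjusted p = 0.00157). The death receptor genes Tnfrsf10b (0.55 ± 0.14) and Fas (1.00 ± 0.26), the antiproliferative gene Btg2 (0.88 ± 0.28), the phosphatase gene Ptp4a3 (1.16 ± 0.25) and Mdm2, the ligase that marks p53 for degradation (0.37 ± 0.13), rose as well. Trp53, the gene of p53, had 15.2, 73.3 and 164 CPM in hCG, against 20.01, 65.2 and 101 CPM in Ctrl and was not called (0.32 ± 0.15, limma adjusted p = 0.127). Sesn1 and Pmaip1 are targets without a call, at -0.05 ± 0.12 and 0.43 ± 0.28. The count of higher targets was 16 without the libraries with both Xist and Y-linked transcripts, 12 without the 2 few-gene Ctrl libraries, 9 with genes detected as a term and 6 with the gene-length term. Plk2, Rbm38, Bax, Cdkn1a and Perp kept their calls under all 15 alternatives, while those of Ccng1, Tnfrsf10b, Fas, Btg2 and Mdm2 ended with the gene-length term.

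**Figure D1:**
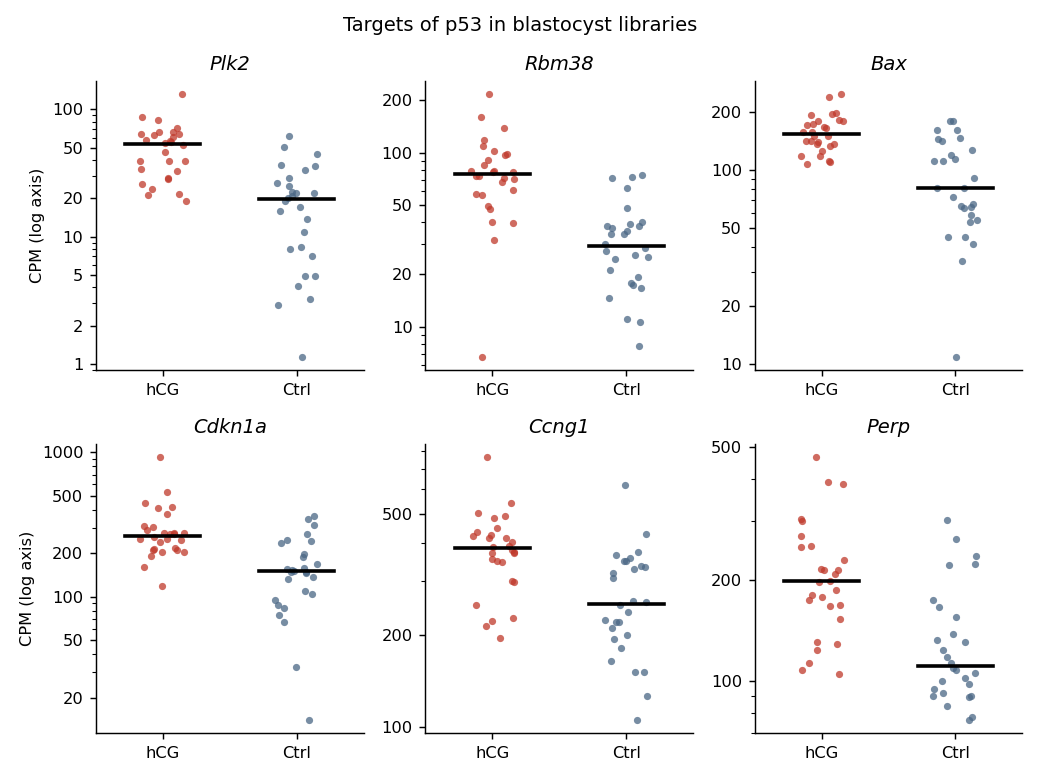
Level of 6 targets of p53 in each blastocyst library (CPM, log axis), hCG at the left and Ctrl at the right of each panel, 28 libraries each, with horizontal lines at the medians. The hCG median lies above the Ctrl median in all 6 panels and the groups overlap in each, as for Bax with medians of 153 CPM in hCG and 81.2 CPM in Ctrl.

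Promoter sequences are shown for the 3 called targets with the highest CPM, not scaled to length, among those whose window holds the decamer half-site of the p53 response element, to let the windows be read beside the values. Windows run from 250 bases before to 50 bases after a RefSeq start site on GRCm38.p6 and are printed 5′ to 3′ on the strand of the gene, with half-sites in capitals. The half-site was searched by its published degenerate letters, which read the same on both strands, and no other motif was searched. The 3 genes were chosen after their values were seen.
Bax: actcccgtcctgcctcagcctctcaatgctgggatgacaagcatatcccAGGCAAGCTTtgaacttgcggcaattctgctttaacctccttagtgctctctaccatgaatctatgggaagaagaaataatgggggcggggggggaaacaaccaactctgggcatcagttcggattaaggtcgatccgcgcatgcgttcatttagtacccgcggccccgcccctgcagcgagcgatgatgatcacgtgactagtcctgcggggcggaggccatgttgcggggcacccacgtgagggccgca
Cdkn1a: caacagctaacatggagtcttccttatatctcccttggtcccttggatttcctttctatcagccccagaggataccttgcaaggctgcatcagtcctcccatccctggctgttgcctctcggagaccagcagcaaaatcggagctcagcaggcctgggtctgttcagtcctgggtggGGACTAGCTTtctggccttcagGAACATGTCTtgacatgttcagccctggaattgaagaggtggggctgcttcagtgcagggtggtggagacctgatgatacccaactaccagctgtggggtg
Ccng1: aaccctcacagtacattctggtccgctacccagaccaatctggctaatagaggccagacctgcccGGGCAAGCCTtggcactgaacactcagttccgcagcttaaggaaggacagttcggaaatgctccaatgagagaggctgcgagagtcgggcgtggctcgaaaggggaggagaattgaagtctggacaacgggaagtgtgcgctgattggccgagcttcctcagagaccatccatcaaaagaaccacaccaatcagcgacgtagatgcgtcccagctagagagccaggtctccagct
The printed window of Bax is chr7:45466849-45467148 on the minus strand, that of Cdkn1a chr17:29090729-29091028 on the plus strand and that of Ccng1 chr11:40755237-40755536 on the minus strand. Cdkn1a has 2 windows, and the printed one was chosen because it holds the most half-sites, 2. Bax and Ccng1 have 1 window each, with 1 half-site in it. Of 15 windows of 13 called targets with an entry, 5 held a half-site, against 8.36% of all 32851 windows and 6.67% of 11132 windows of genes tested. A match is a description of letters and not of binding.

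Among lists with at least 15 tested members, the shares of called members ran in different directions. The largest shares of higher members were those of p53 targets (50%), autophagy and lysosome genes (31.0%) and proteasome genes (28.1%). The largest shares of lower members were those of H3K9 methyltransferase and polycomb genes (32.3%), trophectoderm surface genes (26.1%) and respiratory complexes II to V (23.7%). Cytosolic ribosomal protein genes had fewer calls in both directions than all genes tested, with 1 of 79 higher and 2 lower.

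**Figure D2:**
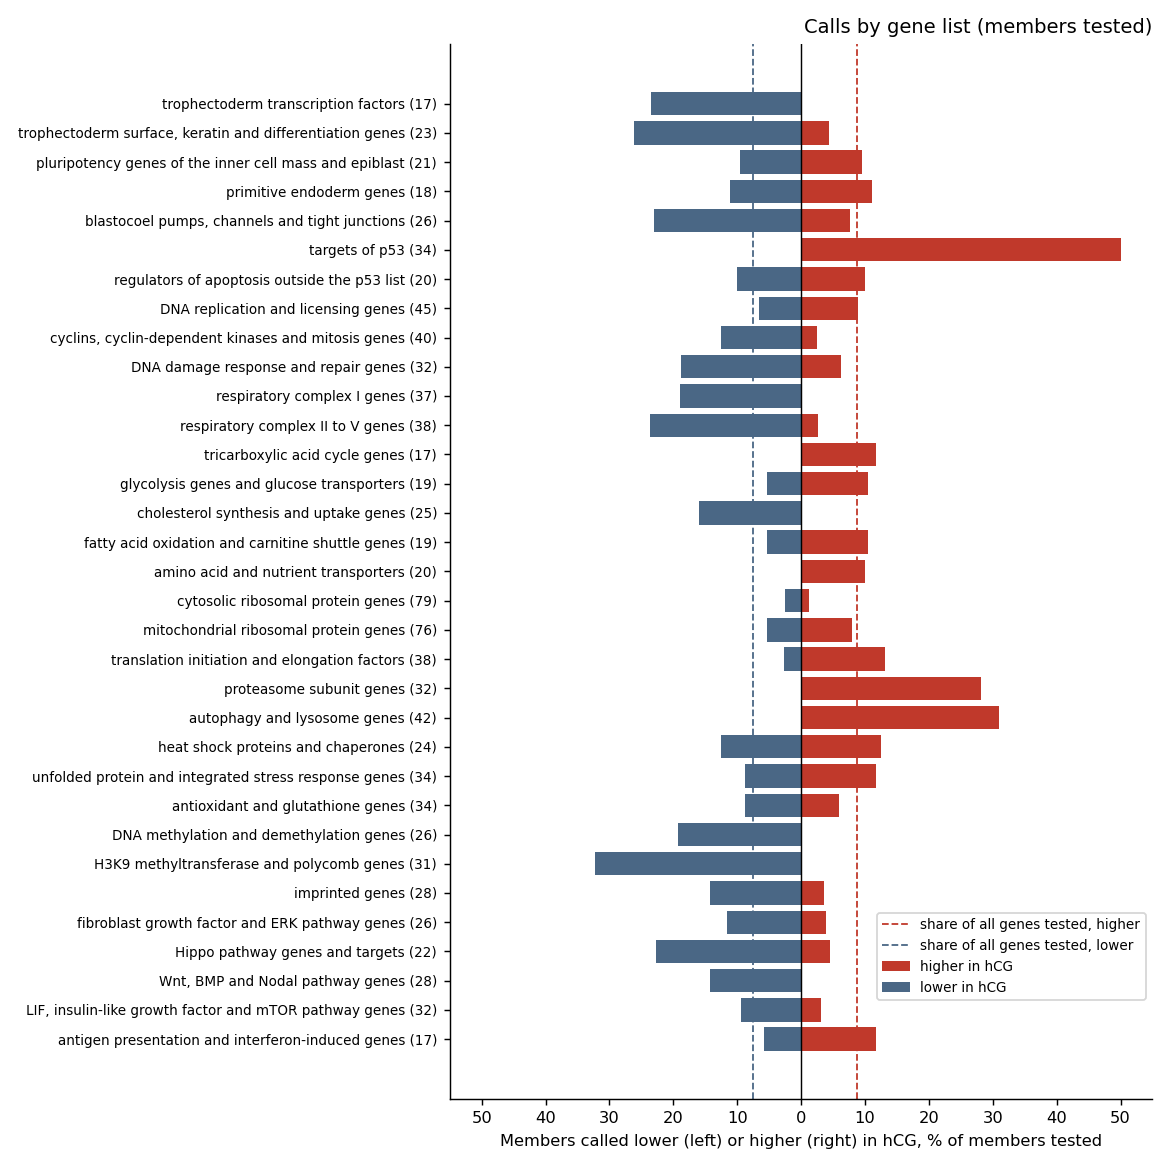
Share of the tested members of each gene list that were called lower (bars to the left) or higher (bars to the right) in hCG blastocysts, in % of the members tested, for lists with at least 15 of them. Dashed lines mark the shares over all 10848 genes tested, 7.57% lower and 8.68% higher, and the bar of p53 targets reaches 50% to the right.

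Several regulators of the trophectoderm fell while its defining factors did not pass the test. Of 17 transcription factors of this layer 0 rose (3 at an unadjusted p under 0.05 in limma, 0 in edgeR), against 8.68% of all genes. The 4 that fell were 23.5%, against 7.57% of all genes, and the median of the list was 0.08. Tfap2a, which with Tfap2c sustains trophoblast genes, had 3.09, 16.7 and 69.00 CPM in hCG, against 11.2, 28.1 and 132 CPM in Ctrl (-0.77 ± 0.18, limma adjusted p = 0.00285). Gata2, a factor of placental hormone genes, had 1.55, 31.7 and 90.2 CPM in hCG, against 30.1, 57.8 and 108 CPM in Ctrl (-0.88 ± 0.21, limma adjusted p = 0.00372). Eomes, needed for trophoblast stem cells, had 16.2, 40.8 and 119 CPM in hCG, against 26.8, 64.3 and 191 CPM in Ctrl (-0.69 ± 0.17, limma adjusted p = 0.00402). In each of the 3 the groups overlapped and 25 to 27 hCG libraries lay below the Ctrl median. Id2, an inhibitor of helix-loop-helix factors, fell as well (-0.45 ± 0.13). Cdx2, the factor that founds this layer, had 14.5, 35.6 and 56.2 CPM in hCG, against 10.3, 29.8 and 97.97 CPM in Ctrl and was not called (0.08 ± 0.15, limma adjusted p = 0.759), and neither was Gata3 (0.39 ± 0.16, limma adjusted p = 0.0765). The call of Tfap2a ended with genes detected as a term, and those of Eomes and Id2 with the gene-length term.

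Among 23 surface, keratin and differentiation genes of the trophectoderm 1 rose, the transcriptional coregulator gene Cited1 (0.70 ± 0.22). It was 4.35% of them, against 8.68% of all genes, and 6 fell (26.1%, against 7.57%), with a median of -0.17. Fgfr2, the receptor through which the inner cell mass sustains trophoblast growth, had 24.1, 43.5 and 80.5 CPM in hCG, against 27.1, 61.6 and 149 CPM in Ctrl (-0.53 ± 0.12, limma adjusted p = 0.00211). Lrp2, the endocytic receptor megalin, had 547, 695 and 1343 CPM in hCG, against 533, 872 and 1775 CPM in Ctrl (-0.34 ± 0.09, limma adjusted p = 0.00949). The keratin genes Krt8 (-0.22 ± 0.18) and Krt18 (-0.13 ± 0.21) were not called. The number of lower members was 4 without the libraries with both Xist and Y-linked transcripts and 1 with the gene-length term, which ended the calls of Fgfr2, Lrp2 and Cited1.

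Genes of the inner cell mass moved in both directions. Of 21 pluripotency genes 2 rose, Nanog and Tbx3, and 2 fell, Spp1 and Dppa5a, with a median of -0.09, close to the shares over all genes. Nanog, the homeobox factor of the epiblast, had 62.8, 211 and 587 CPM in hCG, against 46.9, 144 and 369 CPM in Ctrl (0.58 ± 0.19, limma adjusted p = 0.0313), and its call ended under 8 of 15 alternatives. Dppa5a, an RNA-binding protein gene of pluripotent cells, had 4296, 6929.6 and 16973 CPM in hCG, against 6225, 9232 and 29148 CPM in Ctrl (-0.41 ± 0.11, limma adjusted p = 0.00855). Pou5f1, which encodes the pluripotency factor Oct4, had 12.9, 54.7 and 105 CPM in hCG, against 5.72, 32.9 and 100.1 CPM in Ctrl and was not called (0.57 ± 0.21, limma adjusted p = 0.0562). Sox2 stood at 0.002 ± 0.23 with low levels, a median of 3.01 CPM in hCG and 2.68 CPM in Ctrl. Of 18 primitive endoderm genes 2 rose and 2 fell (11.1% each, against 8.68% and 7.57% of all genes), with a median of -0.18. Cited4, a coregulator gene, had 3.83, 14.03 and 52.00 CPM in hCG, against 0, 8.74 and 23.7 CPM in Ctrl (0.97 ± 0.26, limma adjusted p = 0.00861). The laminin genes Lama1 and Lamb1 fell, the second with 13.1, 34.7 and 104 CPM in hCG, against 14.1, 52.4 and 248 CPM in Ctrl (-0.69 ± 0.20, limma adjusted p = 0.0163). Gata6 (-0.05 ± 0.12), Sox17 (-0.64 ± 0.38) and Pdgfra (-0.44 ± 0.36), factors and a receptor of this lineage, were not called. The calls of Cited4, Lama1 and Lamb1 ended with the gene-length term, and that of Tbx3 held under 5 of 15 alternatives.

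Among the genes that fill and seal the cavity, junction genes moved in both directions. Of 26 pump, channel and junction genes tested 6 fell (23.1%, against 7.57% of all genes) and 2 rose (7.69%, against 8.68%), with a median of -0.13. Dsg2, a desmosomal cadherin gene, had 19.1, 60.5 and 93.5 CPM in hCG, against 44.8, 100.1 and 164 CPM in Ctrl (-0.69 ± 0.12, limma adjusted p = 2.83e-04), and 28 of 28 hCG libraries lay below the Ctrl median. Cdh1 (-0.27 ± 0.09), Pkp2 (-0.32 ± 0.12) and Dsc2 (-0.45 ± 0.17), of adhesive junctions, fell too. The sodium pump subunit gene Atp1b1 was not called (-0.16 ± 0.11, limma adjusted p = 0.315). Aqp3, a water channel gene, rose by 0.60 ± 0.17, as did the junction adhesion gene F11r (0.49 ± 0.16). The number of lower members was 3 without the libraries with both Xist and Y-linked transcripts and 2 with the gene-length term. The calls of Cdh1 and Pkp2 held under 6 of 15 alternatives each, that of Dsc2 under 3 and that of F11r under 9.

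**Figure D3:**
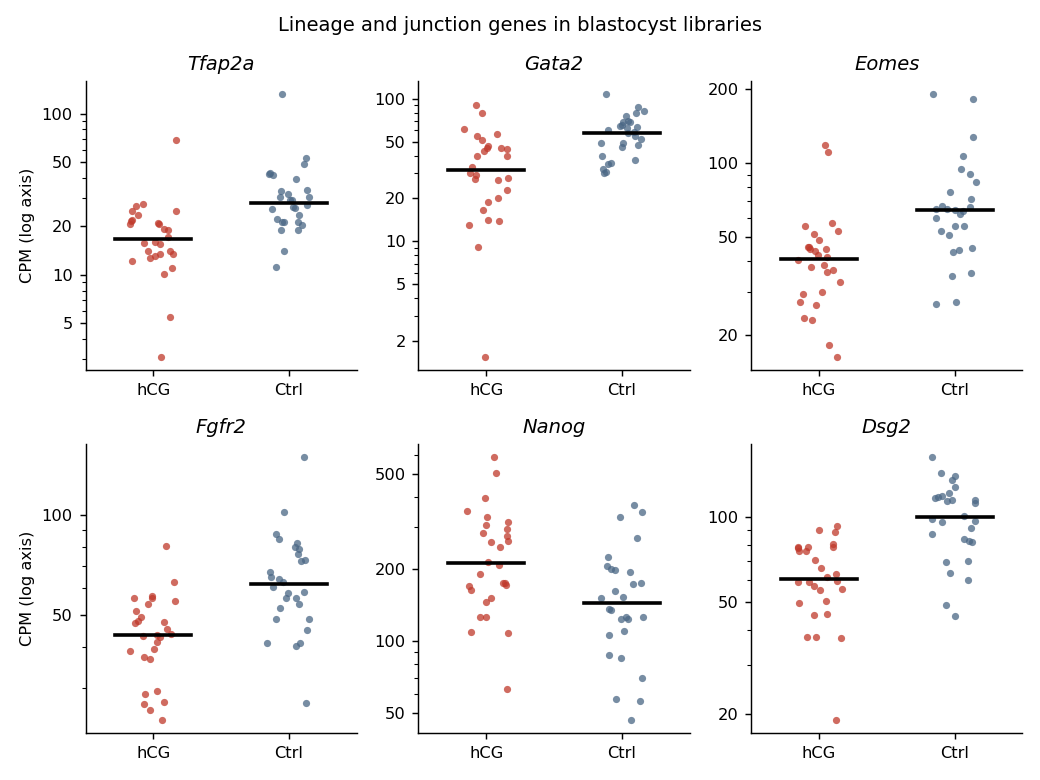
Level of the trophectoderm genes Tfap2a, Gata2, Eomes and Fgfr2, the epiblast factor Nanog and the desmosome gene Dsg2 in each blastocyst library (CPM, log axis), hCG at the left and Ctrl at the right of each panel, 28 libraries each, with lines at the medians. Nanog has the higher median in hCG and the other 5 genes the lower one, and Dsg2 has medians of 60.5 CPM in hCG and 100.1 CPM in Ctrl.

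Genes of proliferation and repair changed in part. Of 40 genes of cyclins, their kinases and mitosis 5 fell (12.5%, against 7.57% of all genes). Of the same genes 1 rose (2.5%, against 8.68%), and the median was -0.04. Top2a, the topoisomerase of dividing cells, had 63.1, 125 and 231 CPM in hCG, against 115, 189.9 and 311 CPM in Ctrl (-0.58 ± 0.12, limma adjusted p = 9.61e-04). Mki67, the gene of the Ki-67 antigen of cycling cells, had 26.9, 85.5 and 185 CPM in hCG, against 58.2, 122 and 328 CPM in Ctrl (-0.63 ± 0.13, limma adjusted p = 0.001004), and 26 of 28 hCG libraries lay below the Ctrl median. The kinetochore motor gene Cenpe (-0.34 ± 0.09) and the mitotic kinase gene Cdk1 (-0.32 ± 0.10) fell, and Cdk4, a kinase of the G1 phase, rose (0.31 ± 0.10). With the gene-length term 0 members were called lower, and edgeR called 6 of the 40 lower. The call of Cdk4 held under 10 of 15 alternatives. Of 45 replication genes 4 rose and 3 fell, with a median of -0.002, near the shares over all genes. Pold2, a subunit of DNA polymerase delta, had 26.5, 106 and 175 CPM in hCG, against 21.2, 61.3 and 131 CPM in Ctrl (0.89 ± 0.15, limma adjusted p = 1.42e-04), 27 of 28 hCG libraries lay above the Ctrl median, and it kept its call under all 15 alternatives.

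Of 32 genes of the DNA damage response and repair 6 fell (18.8%, against 7.57% of all genes) and 2 rose, with a median of -0.11. Brca1, of repair by homologous recombination, had 12.8, 21.9 and 41.7 CPM in hCG, against 20.5, 36.9 and 76.6 CPM in Ctrl (-0.71 ± 0.13, limma adjusted p = 2.36e-04), and its call held under all 15 alternatives. Topbp1 (-0.38 ± 0.10), which activates the checkpoint kinase Atr, and Atr itself (-0.44 ± 0.13) fell, but with the gene-length term Topbp1 stood at -0.17 (limma adjusted p = 0.364) and the call of Atr ended too. Ung, which removes uracil from DNA, had 15.2, 59.2 and 91.3 CPM in hCG, against 9.86, 29.7 and 112 CPM in Ctrl (0.77 ± 0.18, limma adjusted p = 0.00267). Outside the p53 list, 2 of 20 regulators of apoptosis rose and 2 fell (10% each, near the shares over all genes), with a median of 0.05. Xiap, an X-linked inhibitor of caspases, had 4.35, 18.1 and 47.96 CPM in hCG, against 13.5, 29.7 and 61.1 CPM in Ctrl (-0.72 ± 0.14, limma adjusted p = 7.71e-04). Cycs, cytochrome c, fell by 0.37 ± 0.11, and Tnfrsf12a, a gene of the tumour necrosis factor receptor family, rose by 0.77 ± 0.23. Xiap stood at -0.37 (limma adjusted p = 0.126) with the gene-length term, and the call of Tnfrsf12a ended.

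Nuclear genes of the respiratory chain were, with 1 exception, lower where they were called. Of 37 complex I genes 7 fell (18.9%) and 0 rose (1 at an unadjusted p under 0.05 in limma, 0 in edgeR). The median was -0.19, and over all genes 7.57% fell and 8.68% rose. Ndufb5 had 84.1, 160.3 and 321 CPM in hCG, against 130.5, 222 and 628 CPM in Ctrl (-0.55 ± 0.11, limma adjusted p = 0.00114), and Ndufs4 and Ndufv2 fell by 0.48 ± 0.12 and 0.37 ± 0.10. Of 38 genes of complexes II to V 9 fell (23.7%) and 1 rose (2.63%), Uqcrc1 (0.43 ± 0.14), with a median of -0.18. The number of genes detected was higher in hCG, and its part in this result was not tested. With that number as a term 0 genes of either list were called lower, and without the 7 libraries named above (5 with Xist and Y-linked transcripts, 2 with few genes) the counts were 2 and 0. With the gene-length term they were 10 and 11.

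Shares of called genes of fuel use lay near those over all genes, which were 8.68% higher and 7.57% lower. Of 19 genes of fatty acid oxidation Slc25a20 and Cpt2 rose (10.5%) and Acadm fell (5.26%), with a median of 0.01. Slc25a20, the carnitine carrier that brings fatty acids into mitochondria, had 69.7, 196 and 388 CPM in hCG, against 42.02, 111 and 196 CPM in Ctrl (0.83 ± 0.13, limma adjusted p = 6.56e-05), and 26 of 28 hCG libraries lay above the Ctrl median. Slc2a8, an intracellular glucose transporter gene, had 30.00, 72.9 and 143 CPM in hCG, against 0, 41.7 and 94.3 CPM in Ctrl (1.05 ± 0.25, limma adjusted p = 0.00389). Of 17 genes of the tricarboxylic acid cycle Pdhb (0.32 ± 0.08) and Idh2 (0.43 ± 0.15) rose (11.8%) and 0 fell (0 at an unadjusted p under 0.05 in limma, 0 in edgeR), with a median of 0.06. Of 19 glycolysis genes Slc2a8 and Pgam1 rose (10.5%) and Pgk1 fell (5.26%), with a median of 0.21. The calls of Pdhb, Idh2, Pgam1 and Pgk1 ended with the gene-length term. In cholesterol synthesis 4 of 25 genes fell (16%) and 0 rose (0 at an unadjusted p under 0.05 in limma, 0 in edgeR), with a median of -0.04. Hmgcs1, which makes the precursor of mevalonate, had 28.8, 64.3 and 144 CPM in hCG, against 51.5, 107 and 188 CPM in Ctrl (-0.64 ± 0.15, limma adjusted p = 0.00238). Insig1, a feedback regulator of the pathway, fell too (-0.66 ± 0.19). The number of lower members was 1 without the same 7 libraries and 0 with the gene-length term.

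Where genes that break down proteins and organelles were called, they were higher. Of 42 autophagy and lysosome genes 13 (31.0%) were higher and 0 lower (3 at an unadjusted p under 0.05 in limma, 1 in edgeR). The median was 0.24, and over all genes 8.68% were higher and 7.57% lower. Ctsa, a lysosomal carboxypeptidase gene, had 205, 702 and 1043 CPM in hCG, against 124, 459.7 and 793 CPM in Ctrl (0.70 ± 0.15, limma adjusted p = 0.001704), and its call held under all 15 alternatives. Ctsz, a cathepsin gene, had 42.9, 113 and 276 CPM in hCG, against 22.3, 59.8 and 143 CPM in Ctrl (0.90 ± 0.17, limma adjusted p = 5.20e-04). Atg4b, the protease that primes LC3 proteins, rose by 0.57 ± 0.15, as did the cargo receptor gene Sqstm1 (0.80 ± 0.23) and Map1lc3a, an LC3 gene (0.55 ± 0.15). Of 32 proteasome genes 9 (28.1%) were higher and 0 lower (2 at an unadjusted p under 0.05 in limma, 0 in edgeR). The median was 0.13, beside the same shares over all genes. The regulatory subunit gene Psmd13 had 95.5, 140.1 and 240.4 CPM in hCG, against 43.6, 94.7 and 199 CPM in Ctrl (0.58 ± 0.13, limma adjusted p = 0.00174), and all 28 hCG libraries lay above the Ctrl median. Without the same 7 libraries the higher members numbered 6 and 6. With genes detected as a term they numbered 6 and 2, and with the gene-length term 2 and 1.

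Protein folding, stress response and antioxidant genes changed in both directions. By list, shares of higher members ran from 5.88% to 12.5%, against 8.68% over all genes. Those of lower members ran from 8.82% to 12.5%, against 7.57%. Hsf1, the master factor of the heat shock response, had 17.8, 54.6 and 92.6 CPM in hCG, against 7.25, 26.3 and 80.6 CPM in Ctrl (0.89 ± 0.16, limma adjusted p = 1.74e-04), and 27 of 28 hCG libraries lay above the Ctrl median. Dnajb1, a co-chaperone that Hsf1 induces, had 94.6, 165 and 283 CPM in hCG, against 47.1, 108 and 175 CPM in Ctrl (0.64 ± 0.11, limma adjusted p = 1.13e-04). With Hspb8 these were the 3 of 24 chaperone genes that rose (12.5%, median of the list 0.03), and each kept its call under all 15 alternatives. Hsph1, Hspe1 and Hsp90aa1 fell (12.5%), and their calls held under 14, 8 and 7 of 15. In the unfolded protein and integrated stress response 4 of 34 genes rose (11.8%) and 3 fell (8.82%), with a median of 0.09. Psat1, of serine synthesis, had 99.1, 336 and 864 CPM in hCG, against 79.3, 222 and 383 CPM in Ctrl (0.62 ± 0.16, limma adjusted p = 0.00508), and the membrane chaperone gene Canx had 328, 577 and 1438 CPM in hCG, against 412, 719 and 1458 CPM in Ctrl (-0.44 ± 0.10, limma adjusted p = 0.00272). Among antioxidant genes 2 of 34 rose (5.88%) and 3 fell (8.82%, median 0.01), with Txnrd1, a thioredoxin reductase gene, at 0.45 ± 0.14 and Gsta4, a glutathione transferase gene, at -0.62 ± 0.16. Canx and Txnrd1 lost their calls with the gene-length term.

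Translation genes showed small changes. Eef1a1, the elongation factor that brings transfer RNAs to the ribosome, had 2173, 2871 and 3954 CPM in hCG, against 2497, 3657 and 5418 CPM in Ctrl (-0.36 ± 0.07, limma adjusted p = 6.06e-04). Eif4ebp1, a repressor of cap-dependent initiation, had 496, 675 and 971 CPM in hCG, against 282, 528 and 803 CPM in Ctrl (0.39 ± 0.09, limma adjusted p = 0.00328). With the gene-length term neither call held, with Eef1a1 at -0.22 (limma adjusted p = 0.0766) and Eif4ebp1 at 0.13 (limma adjusted p = 0.408). Of 38 factors 5 rose (13.2%) and 1 fell (2.63%), against 8.68% and 7.57% of all genes, with a median of -0.03. Mitochondrial ribosomal protein genes had 6 higher (7.89%) and 4 lower (5.26%) of 76, near the shares over all genes. Their median was 0.02, with Mrpl37 (0.37 ± 0.10) and Mrps36 (-0.45 ± 0.11) among those called. The 3 called cytosolic ribosomal protein genes, Rps20 (-0.28 ± 0.09), Rps13 (-0.23 ± 0.08) and Rpl7a (0.20 ± 0.07), each lost the call under 4 or more alternatives, and the list had a median of -0.04. Eef1a1, Dppa5a and the ribosomal protein genes have near-identical copies that can share reads, so their values are uncertain. Of 20 nutrient transporters 2 rose, Slc5a6 (0.59 ± 0.18) and Slc6a6 (0.33 ± 0.12), and 0 fell (1 at an unadjusted p under 0.05 in limma, 0 in edgeR), with a median of 0.18. The share of 10% lay near the 8.68% of all genes, and the calls held under 9 of 15 alternatives for Slc5a6 and 4 of 15 for Slc6a6.

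Chromatin regulators were lower where they were called. Of 31 genes of H3K9 methylation and polycomb complexes 10 fell (32.3%, against 7.57% of all genes), with a median of -0.14. Against 8.68% of all genes, 0 rose (2 at an unadjusted p under 0.05 in limma, 0 in edgeR). Jarid2, which recruits polycomb repressive complex 2, had 230.1, 308 and 493 CPM in hCG, against 267, 451 and 613 CPM in Ctrl (-0.45 ± 0.08, limma adjusted p = 1.84e-04). For Jarid2 27 of 28 hCG libraries lay below the Ctrl median, and the call held under all 15 alternatives. Suz12, a core subunit of that complex, had 63.5, 106 and 194 CPM in hCG, against 63.96, 141 and 312 CPM in Ctrl (-0.46 ± 0.12, limma adjusted p = 0.00532), and Rybp of polycomb repressive complex 1 fell by 0.47 ± 0.12. The catalytic subunit gene Ezh2 (-0.21 ± 0.10) and Eed (0.17 ± 0.10) were not called. Of 26 DNA methylation genes 5 fell (19.2%) and 0 rose (0 at an unadjusted p under 0.05 in limma, 0 in edgeR). The median was -0.21, beside the same shares over all genes. Beside the de novo enzyme Dnmt3b (-0.61 ± 0.11), Uhrf1, which brings Dnmt1 to replicated DNA, had 13.7, 38.9 and 71.5 CPM in hCG, against 31.1, 53.6 and 98.1 CPM in Ctrl (-0.52 ± 0.13, limma adjusted p = 0.00464). Mbd2, a reader of methylated DNA, fell by 0.67 ± 0.20, and Dnmt3a and Tet1 fell. Dnmt1, the maintenance enzyme, was not called (-0.32 ± 0.12, limma adjusted p = 0.0565). With the gene-length term 1 lower member was called in each list, and with genes detected as a term 6 and 4 were, beside 1 higher member in each.

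Imprinted genes are expressed from 1 parental copy, some of them, such as Ube3a, only in certain tissues. Of 28 tested 4 fell (14.3%, against 7.57% of all genes) and 1 rose (3.57%, against 8.68%), with a median of -0.06. Kcnq1ot1, the long RNA that silences its neighbours on the paternal copy, had 7.71, 18.3 and 31.3 CPM in hCG, against 5.72, 31.2 and 88.2 CPM in Ctrl (-0.79 ± 0.17, limma adjusted p = 0.00161), and 27 of 28 hCG libraries lay below the Ctrl median. Ube3a, a ubiquitin ligase gene, fell by 0.38 ± 0.11, and Mest, a gene of the paternal copy, rose by 0.73 ± 0.21. Kcnq1ot1 lies antisense to Kcnq1, and without strand its reads and those of Kcnq1 cannot be told apart. Under the gene-length term Kcnq1ot1 stood at -0.36 (limma adjusted p = 0.211) and Ube3a at -0.13 (limma adjusted p = 0.495), and the calls of Ube3a and Mest held under 11 of 15 alternatives each. The values are not split by parental copy.

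Lists of growth signalling genes had more lower than higher members. Shares of lower members ran from 9.38%, near the 7.57% of all genes, to 22.7%. Shares of higher members ran from 0% to 4.55%, against 8.68% of all genes. Of 26 genes of fibroblast growth factor signalling 3 fell, Fgfr2, Fgfr1 and Frs2 (11.5%), and 1 rose, the kinase gene Map2k2, with a median of -0.03. Fgfr1 had 14.6, 30.5 and 63.8 CPM in hCG, against 13.9, 45.2 and 78.4 CPM in Ctrl (-0.52 ± 0.14, limma adjusted p = 0.00695), and the docking protein gene Frs2 stood at -0.38 ± 0.10. Of 22 Hippo pathway genes, which relay cell position to lineage, 5 fell (22.7%) and 1 rose, with a median of -0.16. Amot, which holds the coactivator Yap at junctions of inner cells, had 11.5, 22.4 and 54.2 CPM in hCG, against 12.4, 36.8 and 86.5 CPM in Ctrl (-0.62 ± 0.14, limma adjusted p = 0.00226). The kinase gene Taok1 (-0.41 ± 0.10) and the DNA-binding partner Tead2 (-0.50 ± 0.16) fell too. Of 28 Wnt, BMP and Nodal genes 4 fell (14.3%) and 0 rose (1 at an unadjusted p under 0.05 in limma, 0 in edgeR), among them Apc (-0.49 ± 0.13) and Smad4 (-0.33 ± 0.10), with a median of -0.15. In LIF, insulin-like growth factor and mTOR signalling 3 of 32 fell (9.38%) and 1 rose (median -0.10), with Jak1 at -0.35 ± 0.09, Pdpk1 at -0.36 ± 0.12 and Lamtor1 at 0.33 ± 0.09. With the gene-length term 0 members of these 4 lists were called in either direction.

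Of 17 antigen presentation and interferon genes 2 rose (11.8%), Tap1 and H2-T23, and 1 fell (5.88%), near the shares over all genes, with a median of 0.10. Tap1 had 2.63, 9.68 and 24.01 CPM in hCG, against 0, 3.61 and 18.5 CPM in Ctrl (1.35 ± 0.27, limma adjusted p = 7.71e-04). H2-Ab1, a class II histocompatibility gene and 1 of 7 tested genes of stromal, blood and immune cells, had 2.199, 19.4 and 41.6 CPM in hCG, against 0, 9.18 and 35.6 CPM in Ctrl (0.98 ± 0.26, limma adjusted p = 0.00766). That list as a whole summed to 83.3, 148 and 381 CPM in hCG and 46.2, 115 and 359 CPM in Ctrl. Of its 22 genes 8 were at 0 in all libraries, among them Col3a1 and Hbb-bs, while Col1a1 was above 0 in 22 of 28 libraries of each group and Hba-a1 in all. The part of such cells in the H2-Ab1 result was not tested, and its call ended with the gene-length term. Of the 8 tested oocyte genes Padi6 rose (0.73 ± 0.21) and Ooep fell (-0.41 ± 0.15), 12.5% each, and 0 of 2 uterine genes were called (1 higher and 1 lower at an unadjusted p under 0.05 in limma, 0 in edgeR). Amhr2, the only cumulus gene tested, had 2.52, 7.37 and 14.3 CPM in hCG, against 0.7899, 4.59 and 17.5 CPM in Ctrl (0.62 ± 0.20, limma adjusted p = 0.0266). H2-T23 and Ooep were called under 5 of 15 alternatives each, Padi6 under 11 of 14 and Amhr2 under 10 of 14.

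Libraries were split by transcripts into those with Xist alone (8 hCG and 9 Ctrl libraries) and those with Y-linked transcripts alone (15 hCG and 19 Ctrl libraries). The ratio of the classes showed no difference past the threshold between hCG and Ctrl (Fisher's exact test, p = 1). Among libraries with Y-linked transcripts alone 590 of 10848 genes were higher and 478 lower, with 2923 at an unadjusted p under 0.05 in limma. Among libraries with Xist alone 0 were called by limma in either direction, with 601 of the 10848 at an unadjusted p under 0.05. This class held fewer libraries. A test of the difference between the classes called 1 gene (0.00922% of those tested), Sfxn3, a mitochondrial carrier gene outside the rule for named genes and singled out after its value was seen. Sfxn3 averaged 1.93 ± 1.84 CPM in hCG and 4.32 ± 1.49 CPM in Ctrl among libraries with Xist alone, and 3.69 ± 2.16 CPM in hCG and 0.975 ± 1.66 CPM in Ctrl among those with Y-linked transcripts alone. The interaction was -2.44 ± 0.47 (limma adjusted p = 0.0278) and did not pass with a pseudocount of 5 CPM (adjusted p = 0.0861) or without the 2 few-gene Ctrl libraries (adjusted p = 0.0578).

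The difference between classes was not called for any p53 target. Plk2 stood at 0.55 ± 0.43 with Xist alone and 2.11 ± 0.31 with Y-linked transcripts alone, Bax at 0.50 ± 0.31 and 1.09 ± 0.22, and Rbm38 at 0.81 ± 0.39 and 1.56 ± 0.28. Pold2 stood at 0.86 ± 0.29 and 0.88 ± 0.20, and Dnajb1 at 0.55 ± 0.20 and 0.63 ± 0.14, in the same order. On chromosome X, hCG libraries had higher levels of 7 and lower levels of 35 of 376 tested genes (9.31% lower, against 7.57% of all genes). Without the libraries with both Xist and Y-linked transcripts the counts were 6 and 13, and with sex class as a term 7 and 24.

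Libraries of the hCG group lay closer together. The median over genes of the mean absolute deviation from the group median was 0.38 in hCG and 0.50 in Ctrl (log2), and 85.9% of genes deviated less in hCG. In the fit across genes 1 gene (0.00922%) had a called difference in spread, lower in hCG, and 0 a higher one. At an unadjusted p under 0.05 limma gave 2068 genes with a smaller and 27 with a larger spread in hCG. Without the 2 few-gene Ctrl libraries the median difference was -0.07, against -0.11 with all libraries. The called gene was Cap1, a protein that turns over actin filaments, with 85.9, 119 and 311 CPM in hCG, against 71.3, 232 and 599 CPM in Ctrl (difference in deviation -0.64 ± 0.12, limma adjusted p = 0.00614). The Ctrl values of Cap1 fell into 15 libraries from 71.3 to 238 CPM and 13 from 348 to 599 CPM, and all hCG libraries stayed at or below 311 CPM.

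**Figure D4:**
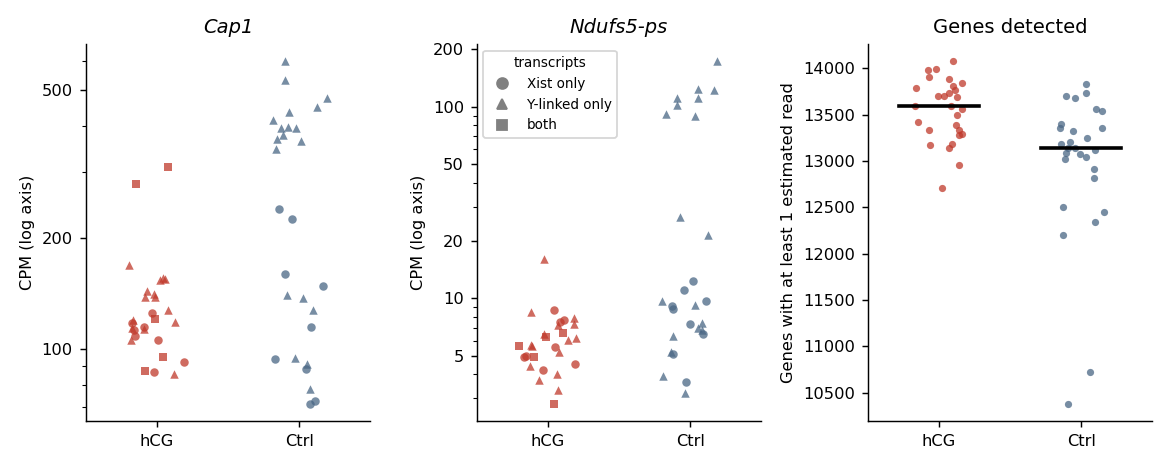
Level of Cap1 and of Ndufs5-ps in each library (CPM, log axes) and number of genes with at least 1 estimated read per library, hCG at the left and Ctrl at the right of each panel, 28 libraries each. Symbols give the transcripts present (Xist only, Y-linked only, both), lines in the right panel are medians, and 13 Ctrl libraries form an upper cluster of Cap1 from 348 to 599 CPM.

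The direction of the differences followed the genomic length of genes, a pattern looked for after results of these data were seen. Called higher genes spanned a median of 14.3 kb and called lower genes 50.1 kb, against 22.8 kb over the 10788 tested genes with a RefSeq span. The genes were cut by span into 4 groups of 2697. In the shortest group 12.98% were higher and 4.04% lower. In the longest group 4.004% were higher and 14.6% lower. Across genes, which are not independent replicates, the Spearman correlation of fold change and span was -0.23.

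Each library was given a value, the median level of the longest group of genes minus that of the shortest group, each gene taken relative to its mean over all libraries. This long-minus-short value was -0.08 ± 0.11 in hCG and 0.11 ± 0.20 in Ctrl (log2, SD, n = 28 each). The difference of -0.19 had a permutation p of 2.00e-05, the smallest that 100000 resamples can give (adjusted p = 8.00e-05), and 27 of 28 hCG libraries lay below the Ctrl median. It was -0.18 without the libraries with both Xist and Y-linked transcripts (permutation test, adjusted p = 6.40e-04). As a term in the fit this value is the gene-length term, also called the long-minus-short term. With it 228 genes (2.1%) were higher and 149 (1.37%) lower, and 209 of the 942 and 114 of the 821 genes kept their calls. The value is computed from the same levels as the outcome, and its part in the results was not tested. Of 110 called genes named by rule 46 were called with it. The calls of 27 held under every alternative run for them, which was 14 for Efna3, Tap1 and Adam19, not tested with a mean of at least 10 CPM, and 15 for the other 24, among them Plk2, Rbm38, Bax, Dsg2, Pold2, Brca1, Ctsa, Hsf1, Dnajb1 and Jarid2.

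**Figure D5:**
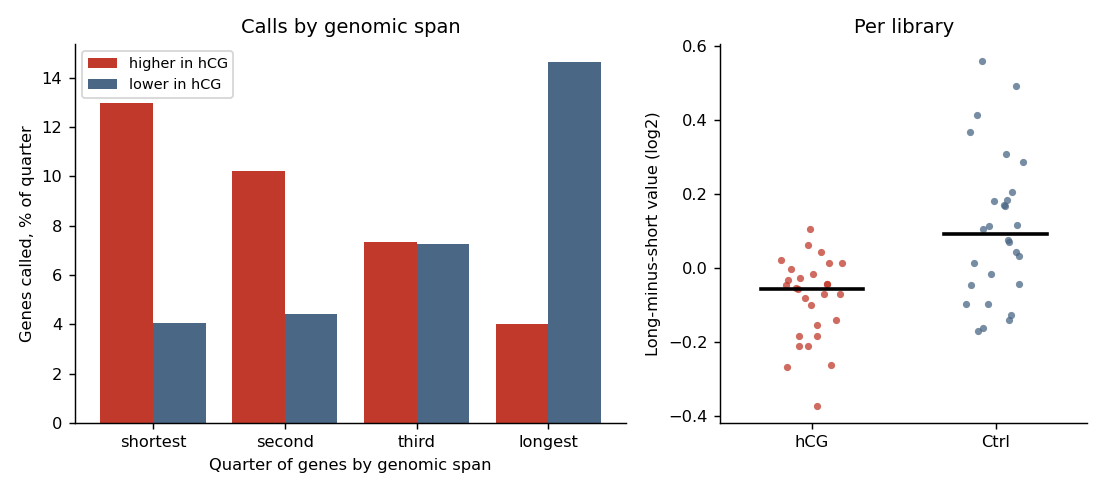
At the left, share of the genes of each of 4 groups of genomic span that were called higher or lower in hCG blastocysts (% of 2697 genes a group, shortest to longest). At the right, the long-minus-short value of each library (log2, 28 libraries a group, lines at the medians), with hCG from -0.37 to 0.11 and Ctrl from -0.17 to 0.56.

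Oocytes of the same treatment, 6 hCG and 6 Ctrl libraries of a separate table, gave the nearest comparison. Ctrl oocytes, however, came from females housed with a vasectomised male. The labels place the hCG oocytes 14 hours after hCG. They give no such time for Ctrl oocytes and no time since ovulation, so treatment and time of collection cannot be told apart in oocytes. Over 7177 genes tested in both materials, the blastocyst difference exceeded the oocyte difference in 511 (7.12%) and fell below it in 579 (8.07%) by a Wald test of both limma fold changes. The 5 genes with the smallest p differed more in oocytes than in blastocysts. Lzts1, a leucine zipper protein gene, averaged 15.8 ± 7.64 CPM in hCG and 13.8 ± 8.45 CPM in Ctrl blastocysts, a difference of 0.33 ± 0.23, and 21.8 ± 6.55 CPM in hCG and 389 ± 137 CPM in Ctrl oocytes, a difference of -4.06 ± 0.25 (SD, n = 28 and n = 6 a group, Wald test of limma fold changes, adjusted p = 6.19e-34). The translation helicase gene Eif4a1 stood at -0.13 ± 0.10 in blastocysts and 2.31 ± 0.16 in oocytes. Tbl1xr1, of nuclear receptor corepressor complexes, was at -0.31 ± 0.11 in blastocysts and 2.57 ± 0.15 in oocytes. Zfp990 and Mrps31 were the other two.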

How the data were processed

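The values analysed are those of the deposited blastocyst table, per the file headers 1 column for each of 28 hCG and 28 Ctrl libraries and 25239 gene symbols. The deposited blastocyst values are a signal that carries a scale factor per library. This is read from the values above 0 of each column, divided by the most frequent of them. Of the quotients 89.0% to 93.5% lie within 0.005 of a whole number, and they served as estimated reads. The oocyte table holds deposited whole-number counts of 6 libraries a group. Per the submitters' processing notes, which give no roles, the tools of the study included STAR 2.7.6a and HTSeq 0.12.4 with builds mm10 and GRCm38. How the blastocyst values were scaled is not given in the sources used here.

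Each blastocyst column was divided by its total, genes were filtered with filterByExpr of edgeR 4.0.16 on estimated reads (minimum 10, total 15), columns were scaled by TMM, and log2(CPM + 1) was tested with limma 3.58.1 (trend and robust) in R 4.3.3. Adding 1 CPM makes fold changes of low genes smaller. The methods were tested on simulated data. Those data held no shared litters and no shift of the long-minus-short value between groups, so that test cannot speak to either. Single library values were compared by 2-sided permutation tests with 100000 resamples (SciPy 1.17.1), adjusted by Benjamini-Hochberg over 4 measures. Sex classes used minima of 30.0 CPM of Xist and of summed Y-linked genes. Few-gene libraries lie over 3.0 scaled median absolute deviations below the median. Members and lists were chosen with earlier results of these data known. Genes named by rule are the 10 largest rises and falls with a mean of at least 5 CPM and 21 or more of 28 hCG values beyond the median of Ctrl in that direction, the 3 called genes per list with the smallest p (mean of at least 5 CPM), the cell type markers and the 5 smallest p of each further test. Other members were chosen after their values were seen. Alternatives were edgeR and DESeq2 1.42.0 size factors on estimated reads, other pseudocounts and filters, left-out libraries and added terms. The terms were sex class, genes detected, replicate number and the long-minus-short value (the gene-length term, chosen after seeing the data). Replicate numbers did not pair the libraries. The dentate gyrus and bisulfite samples were not analysed here. Results for some genes are not reported here.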

Additional observations from a re-analysis of the deposited data

Results flagged for a closer look

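The difference between hCG and Ctrl differed between blastocysts and oocytes for many genes, of which the 5 with the smallest p in the Wald test of both fold changes are given. Blastocyst minus oocyte, it was 4.387 for Lzts1, -2.884 for Tbl1xr1, -2.441 for Eif4a1, -3.491 for Zfp990 and 1.713 for Mrps31 on the log2 scale. Zfp990 averaged 16.6 ± 6.89 CPM in hCG and 19.3 ± 8.99 CPM in Ctrl blastocysts, and 12.3 ± 2.66 CPM in hCG and 0.323 ± 0.165 CPM in Ctrl oocytes. Mrps31, a mitochondrial ribosomal protein gene, averaged 83.4 ± 19.5 CPM in hCG and 79.8 ± 21.3 CPM in Ctrl blastocysts, and 45.1 ± 12.7 CPM in hCG and 139.8 ± 24.8 CPM in Ctrl oocytes. Within blastocysts the difference between hCG and Ctrl was not the same for Sfxn3 in the libraries with Xist alone and those with Y-linked transcripts alone, with an interaction of -2.445 on the log2 scale. Its levels were at most 7.398 CPM in hCG and 6.82 CPM in Ctrl libraries.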

How the results depend on the processing

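The counts of 942 higher and 821 lower genes stayed within 1.5 times under other scalings, pseudocounts and filters. The higher count was 607 with edgeR, 499 without the libraries with both Xist and Y-linked transcripts and the few-gene libraries, 337 with genes detected as a term and 228 with the long-minus-short term. The lower count was 480 without the libraries with both transcripts, 503 without these and the few-gene ones, 437 with genes detected and 149 with the long-minus-short term. The causes were not tested. Of the calls, 53.4% were higher, against 39.2% with edgeR, 62.1% scaled by column totals, 43.5% with genes detected and 60.5% with the long-minus-short term. Replicate numbers did not pair the libraries (28 pairs, r from -0.21 to 0.17), and a replicate block gave 850 higher and 689 lower genes. Spread was lower for 2 genes without the libraries with both transcripts and for 79 by deviation from the group mean. The sex class interaction was called for 0 genes with a pseudocount of 5 CPM, without few-gene libraries or with a mean of at least 10 CPM. The share of the 50 most abundant genes was 18.3% in hCG and 19.5% in Ctrl, and the difference for the 10 most abundant genes was -0.627 percentage points (permutation test, adjusted p = 0.153). With each oocyte library left out, the blastocyst difference lay above the oocyte one in 383 to 653 genes and below it in 389 to 797. Uncalled genes changed sign: Cdx2 to -0.011 with edgeR, -0.0059 without the 7 libraries and -0.088 with genes detected; Sox2 to -0.025 with a pseudocount of 5 CPM, -0.17 with edgeR, -0.041 without few-gene libraries, -0.054 without the 7, -0.019 with sex class and -0.042 with genes detected; Zp3 to -0.078 with edgeR; Gata6 to 0.14 and Pdgfra to 0.0497 with the long-minus-short term. Of 110 called named genes 27 kept their call under every alternative run for them (15 for 24 genes, 14 for 3), and 0 reversed.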

Other observations

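The Ctrl libraries with high levels of a pseudogene lay within those with high levels of Cap1. Ndufs5-ps stood between 89.8 and 173 CPM in 8 Ctrl libraries (3, 7, 13, 15, 20, 21, 23 and 25), and between 3.21 and 26.7 CPM in the other 20, while the hCG libraries held 2.81 to 15.99 CPM. All 8 libraries were among the 13 with Cap1 from 348 to 599 CPM. All 13 were of the class with Y-linked transcripts alone, where 6 Ctrl libraries of that class and all 9 with Xist alone had less Cap1. The labels name no batch, litter or father for these libraries, and no comparison was made between them.

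The shares of called genes varied by chromosome, against 8.68% higher and 7.57% lower over all genes. Chromosomes 8 and X were chosen after their values were seen. On chromosome 8, 67 of 588 tested genes were higher (11.4%) and 15 lower (2.55%). On chromosome X, 7 of 376 were higher (1.86%) and 35 lower (9.31%), and with the long-minus-short term 0 were higher and 5 lower. Chosen after their values were seen, several genes with small p lay outside the lists. Hsd17b1, which makes estradiol from estrone, had 0.9704, 5.11 and 17.1 CPM in hCG, against 0, 0.825 and 6.07 CPM in Ctrl (1.55 ± 0.22, limma adjusted p = 1.40e-05), and all 28 hCG libraries lay above the Ctrl median. The calcium pump gene Atp2b1 had 15.4, 43.1 and 61.8 CPM in hCG, against 41.3, 66.2 and 139 CPM in Ctrl (-0.75 ± 0.11, limma adjusted p = 4.48e-05), and the kinase gene Rock2 of the actin cytoskeleton had 38.7, 64.6 and 94.05 CPM in hCG, against 60.9, 96.8 and 207 CPM in Ctrl (-0.62 ± 0.10, limma adjusted p = 1.13e-04). For Atp2b1 and Rock2 28 of 28 hCG libraries lay below the Ctrl median. Crk, a signalling adaptor gene, stood at -0.67 ± 0.11 and Thap12 at -0.81 ± 0.13. Whether the calls of Hsd17b1, Atp2b1, Rock2, Crk and Thap12 held under the alternatives, the gene-length term among them, is not given here. Levels of Hsd17b1 were low, most of all in Ctrl.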
